A study of Mus musculus with 8 samples.

Results

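The 10 genes described here encode proteins that carry dietary fat through the enterocyte, the absorptive cell of the small intestine: Cd36, Fabp1, Fabp2, Mogat2, Dgat1, Mttp, Apob, Apoa1, Apoa4 and Apoc3. They were chosen by name, not by their values, and make up 10 of the 21883 protein-coding genes on mouse chromosomes 1 to 19, X and Y. Each was examined in a window of its gene body plus 50 kb on each side, taken from RefSeq on GRCm38 (mm10). Because Apoa1, Apoc3 and Apoa4 are neighbours, their windows overlap and the 10 genes occupy 8 separate stretches of the genome.

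Small intestinal crypts, the pits that hold the stem and progenitor cells of the gut lining, came from male C57BL/6J mice aged 9 weeks. The mice were either fed (Fed) or fasted for 24 h (Fast), and each feeding state was studied in mice given the antibiotic tetracycline for 21 days (+Tetra) and in mice without it (-Tetra). CUT&Tag, an assay that tags DNA next to antibody-bound chromatin with a tethered transposase, was run for acetylation of histone H3 at lysine 27 (H3K27ac) and at lysine 9 (H3K9ac). Each mark has 4 groups of 1 sample, and each sample has 2 peak lists, so there are 16 lists in all. The labels do not say whether the 2 lists of a sample come from different animals, so p-values measure only the spread between lists. Fits with 1 list in every group are an exception, since they hold no such spread. The crypts were shaken loose in buffer with EDTA and split into single cells with trypsin, and the labels call the cells epithelial.

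As background, fatty acids and monoacylglycerols are taken up at the brush border, carried by fatty acid binding proteins, and rebuilt into triglyceride at the endoplasmic reticulum. The triglyceride is then loaded onto apolipoprotein B and leaves the cell as a chylomicron, with the small apolipoproteins on its surface. These genes are most active in villus enterocytes, which arise from crypt progenitors. Both acetylation marks sit at active promoters, and H3K27ac also marks active enhancers.

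Gene ends of the group were acetylated in nearly every list. With H3K27ac, 9 of the 10 genes had a peak within 1 kb of a gene end in all 8 lists, a pattern that 33.6% of all protein-coding genes showed. The exception was Cd36, which was marked in 1 list, the second Fed (+Tetra) list. No H3K27ac list marked the ends of 39.4% of all genes. With H3K9ac, 6 of the 10 genes (Apoa1, Apob, Mttp, Fabp1, Fabp2 and Dgat1) were marked in all 8 lists, against 21.1% of all genes. Apoa4 was marked in 6 H3K9ac lists, Apoc3 and Mogat2 in 7 each, and Cd36 in none, as were 25.2% of all genes. In these 3 partly marked genes all 4 Fed lists carried the mark and the missing lists were Fast lists. Apoa4 and Apoc3 share most of their window and are not separate observations. No share of all genes is given for this pattern, so it is description only. That pattern ended when the distance was widened to 2.5 kb, where all 3 were marked in all 8 lists, 9 of the 10 genes in total and 26.2% of all genes. None of the 10 genes was marked in all Fast and no Fed lists, which 0.096% of genes were with H3K27ac and 0.0777% with H3K9ac. None showed the opposite pattern, which 0.0137% and 0.0411% of genes did. A split by tetracycline was also seen in none of them, with 0.00457% (all lists with, none without) and 0.096% (the reverse) of genes for H3K27ac and 0.0457% and 0.0411% for H3K9ac. When every H3K9ac list was cut to its 17249 highest-scoring peaks, 3 genes (Apoa1, Apob and Fabp1) had a marked end in all 8 lists, as did 8.11% of all genes. With the upper 0.5 of each list by score there were 4 (Apoa1, Apob, Fabp2 and Dgat1) and 12.2% of genes.

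**Figure D1:**
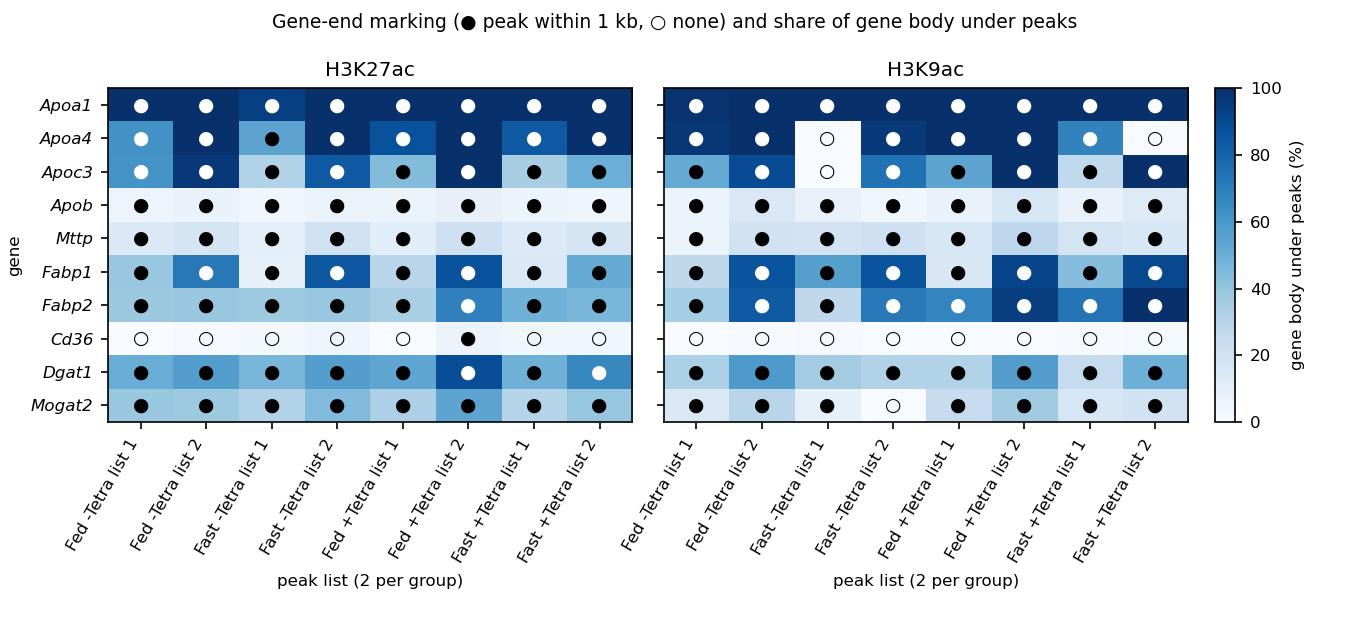
Gene-end marking of the 10 genes in the 8 H3K27ac lists (left) and the 8 H3K9ac lists (right). Rows are genes and columns are peak lists; a filled circle is a peak within 1 kb of a gene end and the shade gives the percent of the gene body under peaks. Cd36 has 1 filled circle in 16, and the open H3K9ac circles of Apoa4, Apoc3 and Mogat2 all lie in Fast lists.

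The lists differ in size, and that touches every count of peaks. They hold 32392 to 68545 H3K27ac peaks and 17249 to 99050 H3K9ac peaks, and the numbers of sequenced reads behind them are unknown. The first Fast lists stand apart: for H3K9ac they hold 99050 (-Tetra) and 97764 (+Tetra) peaks, with 17.2% and 20.3% of peaks at exactly 200 bp, and for H3K27ac the first Fast (-Tetra) list has 11.8% such peaks. The second H3K9ac Fast (+Tetra) list has 31.2%. Without the first Fast list of both tetracycline states, 9 genes with H3K27ac and 7 with H3K9ac (Apoc3 added) were marked in every list left. Markers of the crypt epithelium such as Epcam and Vil1 had a marked gene end with H3K27ac in 10 of 10 cases in every list. Of 10 enterocyte markers, 7 to 10 were marked with H3K27ac in the Fed and 7 to 9 in the Fast lists. Among all protein-coding genes, 42.9% to 50.7% had a marked end in each H3K27ac list. The liver genes Alb, Ahsg and Apoh, which would accompany apolipoprotein genes in hepatocytes, were marked in no list of either mark, while Cps1 was marked with H3K27ac in 8 lists and Ttr in 6. Of all 8 liver markers, 1 to 2 were marked with H3K27ac in Fed and 2 to 3 in Fast lists, with summed covered lengths of 10.3 to 23.8 kb and 25.1 to 34.1 kb. Fewer cells of a type and less mark per cell cannot be told apart in these bulk samples.

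The surface apolipoprotein genes lay in 1 shared stretch of H3K27ac. Apoa1 (the main protein of high-density lipoprotein), Apoc3 (an inhibitor of triglyceride clearance) and Apoa4 (a chylomicron protein induced by fat) lie on chromosome 9 within 14829 bp, at chr9:46228630-46230469, chr9:46233050-46235636 and chr9:46240844-46243458. H3K27ac peaks of the 8 lists merged there into a single region, chr9:46223234-46245376, although each list broke it into several peaks. The merged region ran from 5.40 kb before the Apoa1 start site to 16.8 kb after it and also reached the nearer end of the kinase gene Sik3. Its peaks covered 15390 and 20213 bp in the Fed (-Tetra) lists, 12812 and 18425 bp in Fast (-Tetra), 16335 and 21671 bp in Fed (+Tetra), and 14101 and 18153 bp in Fast (+Tetra). The first list was the shorter in all 4 groups, and Fed and Fast values overlapped. Between lists of the same number and tetracycline state, the Fast value was the lower in 4 of 4 comparisons. The list numbers were not taken to pair the lists and no share over the genome is given, so this is description only. Inside Sik3, 3 further H3K27ac regions were present in all 8 lists, lying from -28.2 to -20.4 kb relative to the Apoa1 start.

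With H3K9ac the stretch was split. A region over Apoa1 and Apoc3, chr9:46227867-46236331, had a peak in all 8 lists, and its peaks covered 5145 and 7794 bp in Fed (-Tetra), 2910 and 7063 bp in Fast (-Tetra), 6057 and 8465 bp in Fed (+Tetra), and 4484 and 7628 bp in Fast (+Tetra). A separate region over Apoa4, chr9:46239727-46245197, was present in 4 Fed and 2 Fast lists. It covered 4137 and 4010 bp in Fed (-Tetra), 0 and 3126 bp in Fast (-Tetra), 3380 and 5471 bp in Fed (+Tetra), and 2064 and 0 bp in Fast (+Tetra). All 4 Fed values of the Apoa4 region lay above all 4 Fast values. Over the genome, 1.99% of 16451 H3K9ac regions found in at least 4 lists did so, and 3 of the 36 such regions in the windows of the 10 genes did: the Apoa4 region, its neighbour chr9:46238299-46239433, and chr15:76497579-76500979 at the end of Hsf1 that faces Dgat1. The lists without an Apoa4 peak were the first Fast (-Tetra) and the second Fast (+Tetra), which have 17.2% and 31.2% of peaks at 200 bp. The first Fast (+Tetra) list has 20.3% such peaks and carried the Apoa4 region at 2064 bp. Whether that peak width has a part in the missing Apoa4 peaks was not tested. The reverse, every Fast value above every Fed value, held for none of the 36 and for 1.37% over the genome. For H3K27ac it held for 1 of 70 regions, against 5.63% over the genome. That region starts at chr6:71184135, in the Fabp1 window and before the gene. Every Fed value was above every Fast value in none of the 70, against 1.04%. No region in these windows was found in 4 Fed lists and absent from Fast, or the other way round.

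**Figure D2:**
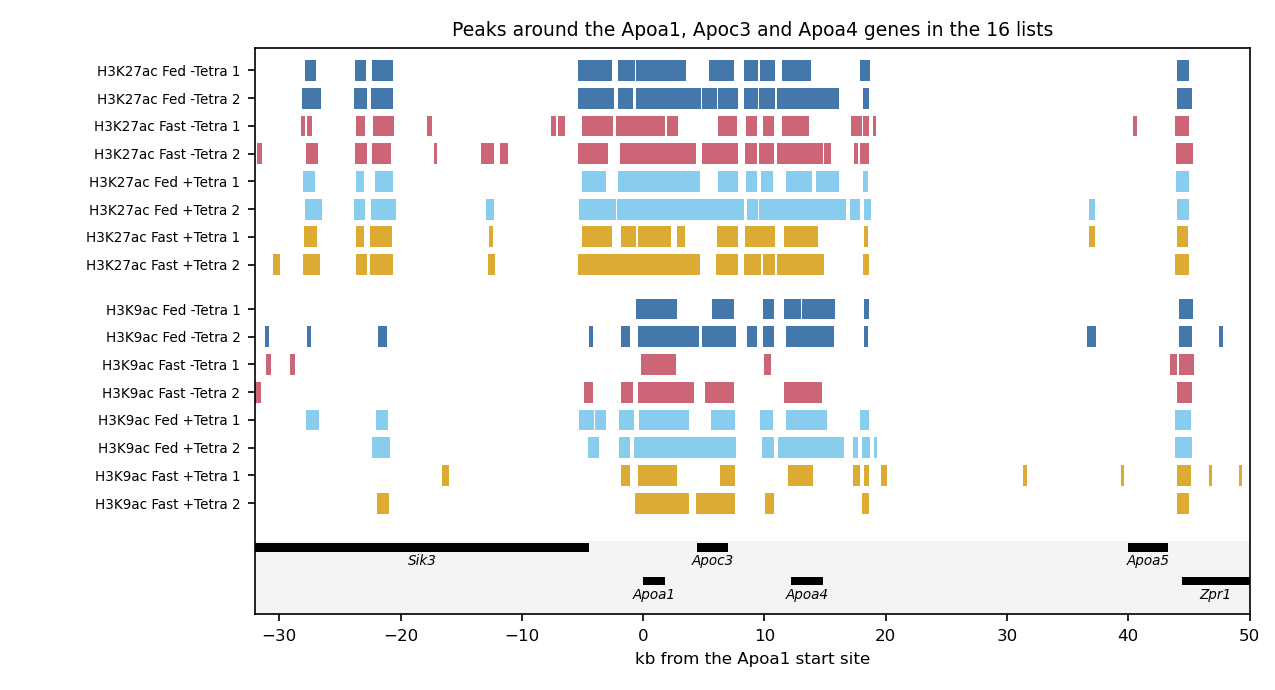
Peaks around Apoa1, Apoc3 and Apoa4, with the distance in kb from the Apoa1 start site on the horizontal axis, 1 row per peak list and genes as black bars at the bottom. H3K27ac bars recur from the end of Sik3 to beyond Apoa4 in all 8 lists, while H3K9ac bars over Apoa4 are absent from 2 Fast lists.

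The Apoa4 promoter is shown because H3K9ac at this start site was present in some lists and absent from others. RefSeq (GRCm38.p6) gives the 250 bases before the start, plus strand, chr9:46240594-46240843. None of the motifs searched for in Apob and the other promoters was found in it.
Apoa4: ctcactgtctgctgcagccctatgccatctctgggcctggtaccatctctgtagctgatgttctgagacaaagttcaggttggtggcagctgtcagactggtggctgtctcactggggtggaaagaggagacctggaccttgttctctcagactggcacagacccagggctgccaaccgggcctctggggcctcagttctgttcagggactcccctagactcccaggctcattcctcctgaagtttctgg

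Apob, the structural protein of the chylomicron, had its single region present in all 8 lists at its start. Its start-site region had a peak in all 8 lists of both marks, chr12:7976989-7979784 for H3K27ac and chr12:7976976-7981996 for H3K9ac. H3K27ac peaks covered 1787 and 2134 bp of it in Fed (-Tetra), 1886 and 2295 bp in Fast (-Tetra), 1784 and 2426 bp in Fed (+Tetra), and 1903 and 2286 bp in Fast (+Tetra). These 8 widths showed no separation of feeding states. The 39211 bp gene body, start-site peaks included, was sparsely covered, at 3.52% to 7.86% with H3K27ac and 3.52% to 15.97% with H3K9ac. No other gene lies in the Apob window, and its covered length, 2.397 to 6.09 kb with H3K27ac, stood between the 36.6th and 59.6th percentile of all genes. A body region, chr12:7984064-7984990, and a flanking region, chr12:7954390-7955631, had H3K27ac peaks in 6 lists each, the body region in 4 Fed and 2 Fast lists. The other end of Apob was marked in no H3K27ac list and 1 H3K9ac list.

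Mttp, which loads triglyceride onto apolipoprotein B, carried most of its recurring acetylated length inside the gene. The gene (chr3:138089855-138143418, minus strand) has its start site 29 bp from Trmt10a, a transfer RNA methyltransferase gene, so a peak there cannot be assigned to either. That shared end had a peak in all 8 lists of both marks. Within the gene, 3 H3K27ac regions were present in all 8 lists, between 8.11 and 23.4 kb downstream of the start site. The widest was chr3:138126509-138131986, whose peaks covered 3134 and 3435 bp in Fed (-Tetra), 1190 and 4958 bp in Fast (-Tetra), 1692 and 4423 bp in Fed (+Tetra), and 2572 and 4676 bp in Fast (+Tetra). H3K9ac peaks lay over the same stretch in all 8 lists (chr3:138126335-138131848). They covered 2425 and 5196 bp in Fed (-Tetra), 4483 and 5401 bp in Fast (-Tetra), 4311 and 5357 bp in Fed (+Tetra), and 5074 and 5285 bp in Fast (+Tetra). This internal H3K9ac region was wider than the 763 to 1298 bp of the widest peak at the Mttp gene end. Of the 4 H3K27ac regions of Mttp present in all lists, 3 overlapped an H3K9ac region present in all lists.

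The uptake and transport proteins Fabp1 and Fabp2, which bind fatty acids in the cytosol, had marked start sites in all 8 lists of both marks. At Fabp1 (chr6:71199879-71205034) the H3K9ac region chr6:71199465-71204983 spanned nearly the whole gene. Its peaks covered 1667 and 4850 bp in Fed (-Tetra), 3113 and 4632 bp in Fast (-Tetra), 1141 and 4997 bp in Fed (+Tetra), and 2470 and 5010 bp in Fast (+Tetra). The Fabp1 values split by list number rather than by feeding, with all 4 second lists above all 4 first lists. No share over the genome is given for a split by list number, so this is description only. At Fabp2 (chr3:122895072-122899506) the H3K9ac region chr3:122894868-122901404 covered 1565 and 3718 bp in Fed (-Tetra), 1231 and 3330 bp in Fast (-Tetra), 4312 and 5529 bp in Fed (+Tetra), and 4344 and 6417 bp in Fast (+Tetra). All 4 Fabp2 values with tetracycline lay above all 4 without it, as in 1.31% of such regions over the genome and 2 of the 36 in these windows. The reverse held for none of the 36, against 0.754%. For H3K27ac the figures were 1 of 70, against 0.6%, and none in reverse, against 1.18%. That 1 region lies in the Fabp2 window but starts at chr3:122889741, where the H3K9ac region starts at chr3:122894868. H3K27ac at Fabp2 was most extensive outside the gene, in a region 18.7 to 15.3 kb before its start (chr3:122876333-122879822) with 1953 to 3225 bp covered in the 8 lists. Fabp1 likewise had 5 flanking H3K27ac regions present in all 8 lists, 3 of them between 31.8 and 13.9 kb before its start.

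The promoters of Apoa1, Apob, Mttp, Fabp1 and Fabp2 are shown because their start sites were marked by both modifications in all 8 lists, as 33.8% of 21262 start sites were for H3K27ac and 20.3% for H3K9ac. Each is the 250 bases before the start site in RefSeq (GRCm38.p6): Apoa1 chr9:46228380-46228629 (plus strand), Apob chr12:7977427-7977676 (plus strand), Mttp chr3:138143419-138143668 (minus strand), Fabp1 chr6:71199629-71199878 (plus strand) and Fabp2 chr3:122894822-122895071 (plus strand). Capitals mark matches on either strand to 7 motifs. These are the HNF4 core CAAAGGT and its variant written CAAAGTC, and the nuclear receptor half-site AGGTCA, which can overlap the first of them. The others are the CDX motif CCATAAA and its variant written CAATAAA, the TATA box TATAAA and the GATA motif TGATAA.
Apoa1: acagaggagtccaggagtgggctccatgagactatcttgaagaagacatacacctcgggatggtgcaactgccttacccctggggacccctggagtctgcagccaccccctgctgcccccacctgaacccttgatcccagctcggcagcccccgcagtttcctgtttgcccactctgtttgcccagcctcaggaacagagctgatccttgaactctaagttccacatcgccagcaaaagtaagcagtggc
Apob: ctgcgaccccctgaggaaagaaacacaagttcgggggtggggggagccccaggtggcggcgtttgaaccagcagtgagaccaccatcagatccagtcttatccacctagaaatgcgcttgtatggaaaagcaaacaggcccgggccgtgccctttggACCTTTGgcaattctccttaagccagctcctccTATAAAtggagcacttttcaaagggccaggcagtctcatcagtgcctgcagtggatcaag
Mttp: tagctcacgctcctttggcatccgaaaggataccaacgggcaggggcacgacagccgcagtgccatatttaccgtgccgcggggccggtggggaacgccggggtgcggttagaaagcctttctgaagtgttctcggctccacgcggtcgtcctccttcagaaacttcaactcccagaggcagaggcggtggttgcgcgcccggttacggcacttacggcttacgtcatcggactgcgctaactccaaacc
Fabp1: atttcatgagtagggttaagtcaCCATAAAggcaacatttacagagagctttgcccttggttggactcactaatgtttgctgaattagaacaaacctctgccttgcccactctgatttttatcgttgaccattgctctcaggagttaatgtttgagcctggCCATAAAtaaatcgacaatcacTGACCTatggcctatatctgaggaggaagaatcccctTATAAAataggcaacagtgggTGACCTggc
Fabp2: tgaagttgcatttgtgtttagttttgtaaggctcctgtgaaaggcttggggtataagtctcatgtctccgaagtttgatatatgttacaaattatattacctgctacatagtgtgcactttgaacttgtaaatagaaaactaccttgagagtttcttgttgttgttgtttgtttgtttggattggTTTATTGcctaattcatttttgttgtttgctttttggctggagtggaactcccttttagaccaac
Fabp1 holds CCATAAA at 2 places, AGGTCA in reverse orientation at 2 places, and TATAAA 30 to 25 bases before its start. CCATAAA occurs in 2.04% of all 21262 promoters of this length, AGGTCA in 12.8% and TATAAA in 11.6%. Apob holds CAAAGGT in reverse orientation 93 to 87 bases before the start, a match found in 3.29% of promoters, and a TATAAA. Fabp2 holds CAATAAA in reverse orientation, found in 3.65% of promoters. CAAAGTC (3.65% of promoters) and TGATAA (6.94%) were in none of the promoters of the group. Apoa1 and Mttp hold no listed motif, and Mttp has 25 CpG pairs, where the median promoter has 10 and Fabp1 has 2. Trmt10a begins 29 bp from the Mttp start, so most of the bases printed for Mttp lie within Trmt10a. A match is a description of letters, not of binding.

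The triglyceride synthesis genes Mogat2 and Dgat1, acyltransferases of the first and last step of rebuilding triglyceride, had long acetylated stretches in their windows. Dgat1 (chr15:76502012-76512021) had 15.6 to 31.6 kb under H3K27ac peaks, between the 93.9th and 98.7th percentile of all genes, although 8 other genes share its window and Hsf1, the heat shock factor gene, lies 856 bp away. Its gene-end region chr15:76503156-76512985 covered 5730 and 6257 bp in Fed (-Tetra), 5252 and 6640 bp in Fast (-Tetra), 5699 and 9353 bp in Fed (+Tetra), and 5601 and 7014 bp in Fast (+Tetra). The H3K9ac region at that end, chr15:76508660-76512491, was steadier, with 2785 to 3693 bp covered in the 8 lists. Mogat2 (chr7:99219084-99238611) shares its window with Dgat2, a second acyltransferase of triglyceride synthesis, 36370 bp away. It had 8 H3K27ac regions present in all 8 lists, 3 of them in the gene body, and no H3K9ac region present in all 8. Its most frequent H3K9ac region by lists and width, chr7:99178793-99183413, lies at Dgat2 and was absent from the first Fast (-Tetra) list. At Mogat2 itself the H3K9ac region chr7:99236565-99239151 covered 1850 and 2378 bp in Fed (-Tetra), 1165 and 0 bp in Fast (-Tetra), 2274 and 2326 bp in Fed (+Tetra), and 2235 and 1169 bp in Fast (+Tetra). The 4 Fast values spanned 0 to 2235 bp and overlapped the Fed range of 1850 to 2378 bp. Apoc3, Dgat1 and Mogat2 have no promoter printed here.

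Cd36, a fatty acid translocase of the brush border, stood apart from the other 9 genes. Its 107270 bp gene body (chr5:17781690-17888959) is the longest of the 10, and no other gene lies in its window. No H3K27ac list had a peak within 1 kb of its RefSeq start site, and 1 H3K9ac list did, the first Fast (-Tetra), with a peak of 200 bp. Over all genes, 41.1% of start sites were marked in no H3K27ac list. Inside the gene, 2 H3K27ac regions were found in all 4 Fast lists. The region chr5:17828402-17829736, 6.16 to 7.49 kb downstream of the start site, covered 0 and 862 bp in Fed (-Tetra), 1228 and 1296 bp in Fast (-Tetra), 0 and 1092 bp in Fed (+Tetra), and 997 and 979 bp in Fast (+Tetra). All 4 Fast lists and 2 Fed lists therefore carried it. A region 46.4 to 43.9 kb upstream of that start but within the gene, chr5:17879822-17882265, covered 0 and 0 bp in Fed (-Tetra), 906 and 1351 bp in Fast (-Tetra), 0 and 2224 bp in Fed (+Tetra), and 2077 and 1234 bp in Fast (+Tetra). It had a peak in 4 Fast lists and in 1 Fed list, the second Fed (+Tetra) list, where it was also the widest. A neighbouring region, chr5:17876666-17877874, had a peak in 1 Fed and 3 Fast lists, and no region of Cd36 was found in all 8. H3K9ac was present at Cd36 only as scattered peaks, 15 of 16 regions being in a single list.

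Other cell types of the gut wall also use Cd36, so their markers stand beside it. With H3K27ac the endothelial genes Pecam1, Cdh5 and Kdr, the macrophage genes Adgre1 and Csf1r and the adipocyte gene Adipoq had no marked gene end in any list. Among the same kinds of markers, Lyve1 of lymphatic endothelium was marked in 8 lists and Plin1 of adipocytes in 6 (3 Fed and 3 Fast). Of 10 markers of stroma and endothelium, 1 to 2 were marked in the Fed and 1 to 2 in the Fast lists, and their summed covered length was 33.2 to 51.4 kb in Fed and 46.1 to 61.8 kb in Fast. The 10 immune markers had 2 to 5 marked in Fed and 3 to 4 in Fast, with 37.6 to 70.5 kb and 64.1 to 80.9 kb. The 5 adipocyte markers had 0 to 1 marked in either state, with 9.11 to 17.4 kb and 15.9 to 21.3 kb. Their part in the Cd36 values was not tested.

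The Cd36 promoter, chr5:17835897-17836146 on the minus strand in RefSeq (GRCm38.p6), is shown as the start site with no H3K27ac peak in any list, with a reverse AGGTCA in capitals.
Cd36: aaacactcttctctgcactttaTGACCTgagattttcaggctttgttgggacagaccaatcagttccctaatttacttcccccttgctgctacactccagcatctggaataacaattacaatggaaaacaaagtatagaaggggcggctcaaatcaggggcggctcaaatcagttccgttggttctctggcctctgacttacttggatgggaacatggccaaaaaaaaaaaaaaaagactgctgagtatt

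**Figure D3:**
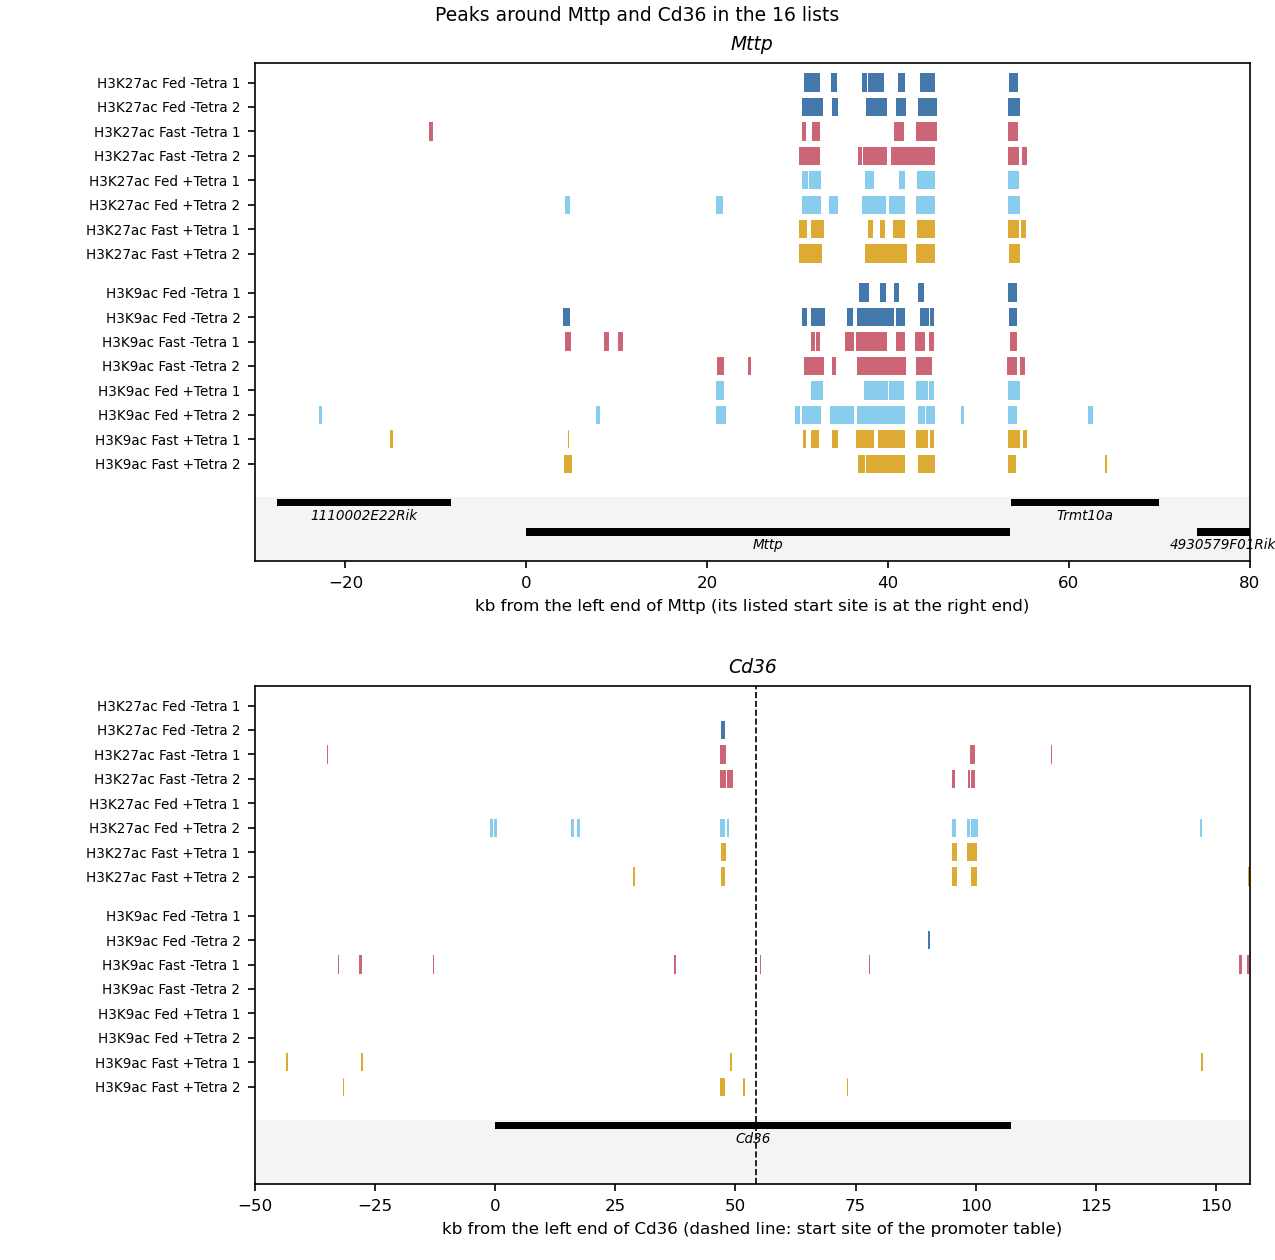
Peaks around Mttp (top) and Cd36 (bottom), with the distance in kb from the left end of the gene on the horizontal axis, 1 row per peak list and genes as black bars. At Mttp the bars stack inside the gene and at the end shared with Trmt10a in both marks; at Cd36 the dashed start site has no H3K27ac bar, and the 2 H3K27ac regions found in all 4 Fast lists lie on either side of it.

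Across the 8 windows, peaks of all lists merged into 139 H3K27ac regions, of which 37 (26.6%) had a peak in all 8 lists, against 14.6% of 112301 regions in the genome. For H3K9ac, 13 of 209 regions (6.22%) did, against 1.52% of 295928. Regions in a single list made up 34.5% of the H3K27ac and 60.8% of the H3K9ac regions of these windows.

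Covered length, the number of bases under peaks in a gene's window, was compared between feeding states with limma on log2(bp + 1000), over 15745 genes for H3K27ac and 16703 for H3K9ac with a mean of at least 1000 bp. For H3K9ac, Apoa1 had 11.7 and 20.2 kb in Fed (-Tetra), 6.41 and 13.7 kb in Fast (-Tetra), 18.9 and 22.0 kb in Fed (+Tetra), and 12.1 and 11.3 kb in Fast (+Tetra). Mogat2 had 6.12 and 15.6 kb, 5.04 and 6.09 kb, 9.53 and 19.5 kb, and 6.76 and 9.01 kb in the same order. In both genes the Fast means were the lower (10.9 against 18.2 kb for Apoa1, 6.73 against 12.7 kb for Mogat2), and the single lists overlapped. For H3K27ac, Cd36 had 0 and 0.862 kb in Fed (-Tetra), 2.73 and 4.40 kb in Fast (-Tetra), 0 and 7.26 kb in Fed (+Tetra), and 3.97 and 4.54 kb in Fast (+Tetra). The 4 Fast lists at Cd36 lay between 2.73 and 4.54 kb, and the Fed lists ranged from none to the highest value of all. No gene of the 10 had every Fast list above every Fed list, which 6.56% of genes did for H3K27ac and 3.14% for H3K9ac. None had the reverse, against 0.127% and 0.329%.

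**Figure D4:**
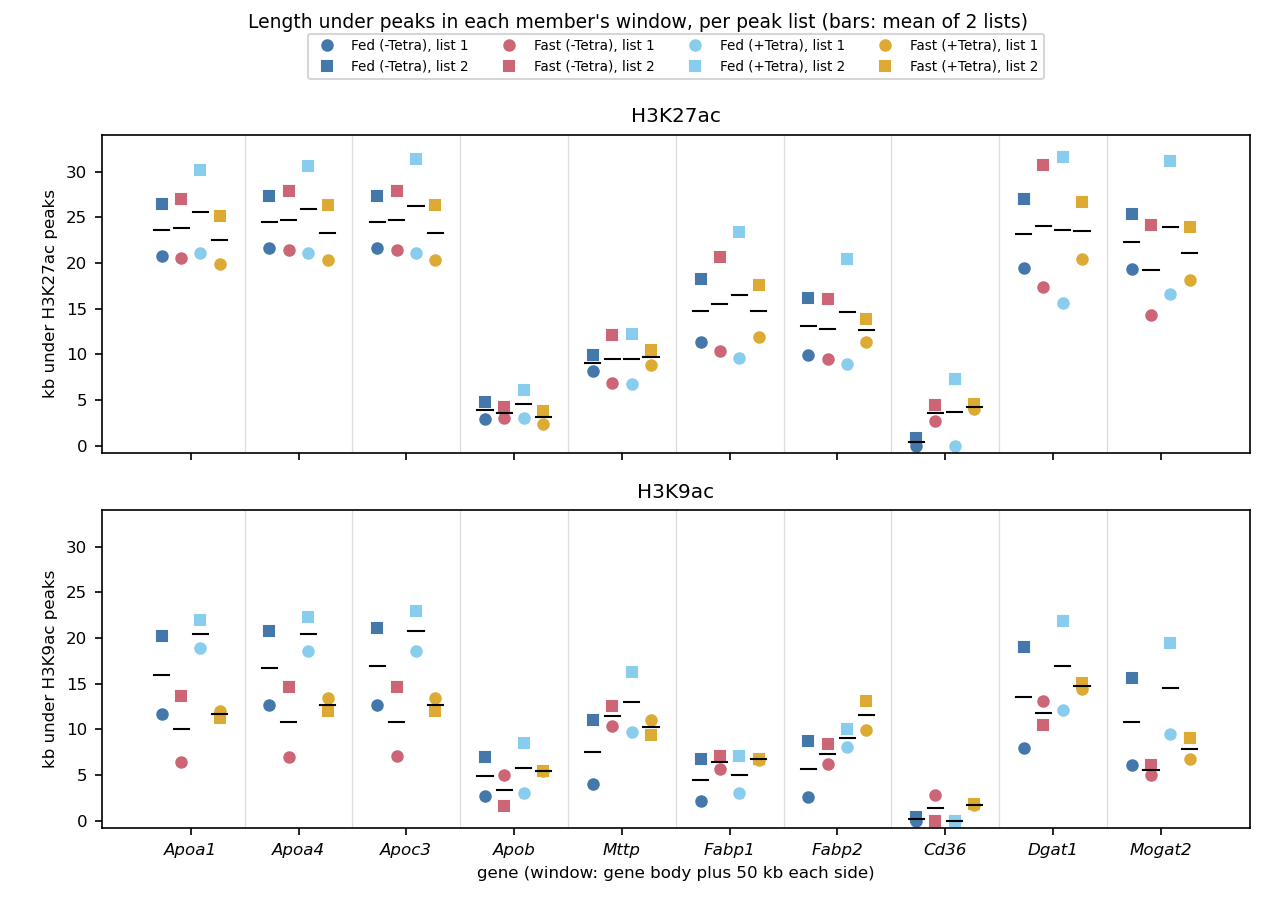
Kilobases under H3K27ac (top) and H3K9ac (bottom) peaks in the window of each gene. Each point is 1 peak list, coloured by group, with circles for first and squares for second lists and a bar at the mean of 2 lists; the H3K9ac points of Apoa1, Apoa4, Apoc3 and Mogat2 are lower on average in Fast than in Fed, and those of Cd36 stay between 0 and 2.83 kb.

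None of the 10 genes passed an adjusted p of 0.05 for feeding. With H3K27ac 163 of 15745 genes did (1.04%), all of them higher in Fast, and with H3K9ac 1 of 16703 (0.00599%). At an unadjusted p under 0.05 there were 1707 and 778 genes. An exact permutation of the lists could call no gene, since its smallest p is 0.0556. The H3K9ac difference, Fast minus Fed, was -0.71 (SE 0.31) for Apoa1, -0.64 (SE 0.31) for Apoa4 and -0.65 (SE 0.31) for Apoc3, which share most of their window, and -0.73 (SE 0.35) for Mogat2. Each had a limma adjusted p of 0.955. Two-sided exact permutation of the lists within tetracycline states gave p = 0.111 for the 3 apolipoprotein genes and p = 0.0556 for Mogat2, the latter being the smallest that 36 arrangements allow. Across all genes the median H3K9ac difference was 0.21, and 0.694% of genes lay below Apoa1 and 0.515% below Mogat2. Their split fits gave -0.66 and -0.73 without tetracycline and -0.76 and -0.74 with it, for Apoa1 and Mogat2 respectively. Tested in each tetracycline state separately, no member passed, where 0.121% of genes did for H3K27ac without tetracycline, 0.0508% with it, and 0% for H3K9ac in both. The summed H3K9ac covered length was 40.8 to 128.8 kb in Fed and 60.3 to 99.4 kb in Fast lists for the enterocyte markers, and 13.3 to 41.6 kb and 29.8 to 48.1 kb for the stem-cell markers.

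Which lists entered changed these calls. Fits with 1 list a group assume that single lists vary alike in all 4 groups. Where every group has 1 list, feeding and tetracycline effects are also assumed to add up, and p-values measure departures from that sum. In such a limma fit of the 4 first lists alone, Apoa1 (-0.69, adjusted p = 0.0255), Apoa4 (-0.62, adjusted p = 0.0406) and Apoc3 (-0.60, adjusted p = 0.0441) passed together with 6418 of 16703 genes, and so did Fabp1 with an opposite sign (1.01, adjusted p = 0.0218). In the fit of the 4 second lists, Mogat2 passed (-1.13, adjusted p = 0.00779) among 674 genes, and Apoa1 did not (-0.72, adjusted p = 0.0613). Without the first Fast list of both tetracycline states, the differences were -0.48 for Apoa1 and -0.58 for Mogat2, with a limma adjusted p of 0.9999 for both. Fabp1 (0.51, SE 0.38) and Fabp2 (0.39, SE 0.36) had positive H3K9ac differences in the fit of all lists, and that of Fabp2 was -0.38 when lists were cut to equal numbers of top peaks. That setting also moved Mogat2 to -1.27, Dgat1 from -0.11 to -1.17, Apob from -0.20 to -0.79 and Fabp1 to 0.11, with limma adjusted p from 0.300 (Mogat2) to 0.904 (Fabp1). With the first lists alone Mogat2 was -0.34 and did not pass, and with the second lists alone Fabp1 was 0.0065.

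For H3K27ac the members' median difference was -0.06, where the median of all genes was 0.19, and 9 of the 10 genes lay below that median. Values ran from -0.24 (SE 0.27) for Apob to 0.05 (SE 0.26) for Mttp, apart from Cd36 at 1.29 (SE 0.53). The limma adjusted p for Cd36 was 0.368, and 99.4% of genes had a lower difference. With the first lists alone Cd36 reached 2.11 (limma adjusted p = 0.0199, among 1096 genes called), and with the second lists alone it was 0.48 and did not pass. For H3K9ac Cd36 was under the minimum of 1000 bp and was not tested. The summed H3K27ac covered length of 8 stem-cell markers was 21.3 to 56.2 kb in the Fed and 56.3 to 96.9 kb in the Fast lists, without overlap. That of the 10 enterocyte markers was 81.2 to 182.0 kb in Fed and 91.8 to 159.7 kb in Fast. Non-overlap was not particular to the stem-cell markers: the 8 liver markers had 10.3 to 23.8 kb in Fed and 25.1 to 34.1 kb in Fast. Of all genes tested, 79.8% had a positive H3K27ac feeding difference. The part of cell composition in the values of these genes was not tested.

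**Figure D5:**
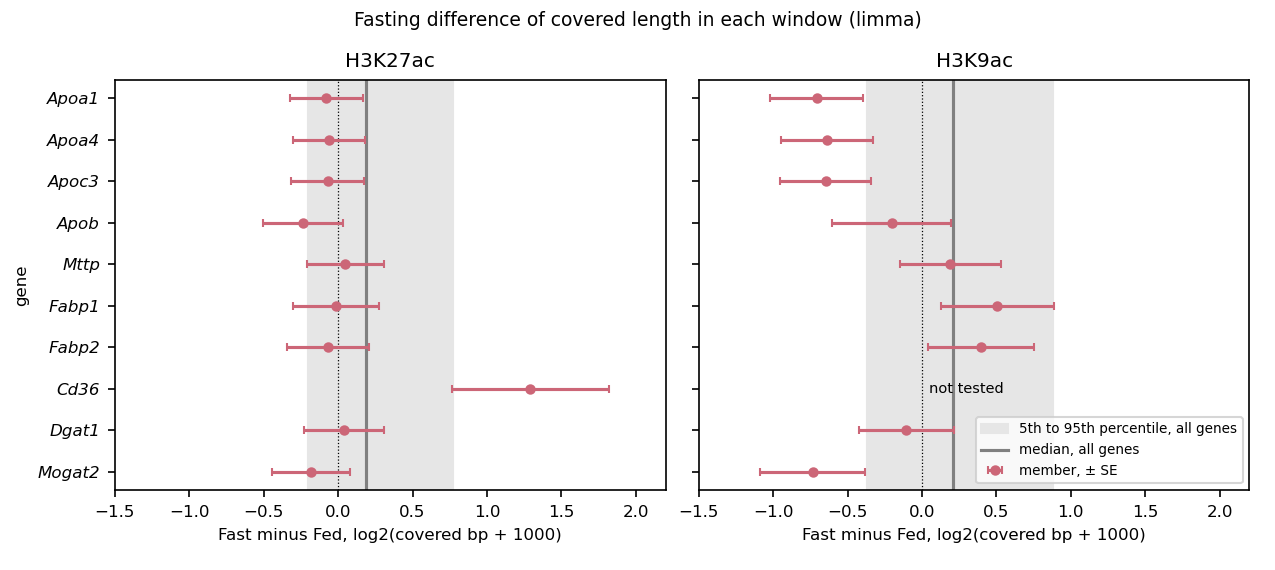
Difference in covered length between Fast and Fed, on the log2(bp + 1000) scale, for each gene (point, with its standard error) in H3K27ac (left) and H3K9ac (right). The grey line is the median and the grey band the 5th to 95th percentile of all genes tested; Cd36 lies to the right of the H3K27ac band at 1.29, and Apoa1, Apoa4, Apoc3 and Mogat2 lie to the left of the H3K9ac band.

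For tetracycline, no member passed for either mark, where 27 of 15745 genes (0.171%) did with H3K27ac, all lower with tetracycline, and 0 of 16703 (0%) with H3K9ac (limma; 60 genes at an unadjusted p under 0.05). With H3K9ac all 9 tested genes had a positive difference, as did 62.5% of all genes tested. Among the 9, Apoa1, Apoc3 and Apoa4 share most of their window and are not separate observations. The differences ran from 0.14 (SE 0.38) for Fabp1 to 0.67 (SE 0.36) for Fabp2, with a median of 0.33 against 0.08 for all genes. Fabp2 had 2.60 and 8.78 kb in Fed (-Tetra), 6.22 and 8.42 kb in Fast (-Tetra), 8.02 and 10.1 kb in Fed (+Tetra), and 9.94 and 13.1 kb in Fast (+Tetra). No gene of the 10 had every list with tetracycline above every list without it, or the reverse, against 0.102% and 1.57% of genes for H3K27ac and 0.239% and 0.15% for H3K9ac. The Fabp2 lists of both tetracycline states overlapped, with 8.02 kb as the lowest value with tetracycline and 8.78 kb as the highest without. With H3K27ac the median of the 10 genes was 0.02 against -0.11 for all genes, and Cd36 had the largest difference at 0.65 (SE 0.53), which was 0.21 with the first lists alone and 1.09 with the second lists alone. The H3K9ac difference of Fabp2 was 0.96 and 0.38 in those fits and 1.25 with equal numbers of top peaks. Within the Fed lists 0.216% of genes passed for H3K27ac, none of them a member, and no gene did within the Fast lists. The feeding difference did not pass a test of its dependence on tetracycline in any member, where 2 of 15745 genes did with H3K27ac (0.0127%) and 0 of 16703 with H3K9ac (0%, with 41 at an unadjusted p under 0.05).

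A list of 36 further genes of fat handling gave 1 call. Mgll, the monoacylglycerol lipase, had 2.12 and 5.08 kb under H3K27ac peaks in Fed (-Tetra), 10.03 and 9.43 kb in Fast (-Tetra), 2.17 and 4.26 kb in Fed (+Tetra), and 7.99 and 9.08 kb in Fast (+Tetra). All 4 Fast lists lay above all 4 Fed lists, as they did for 6.56% of genes, and the difference was 1.26 (SE 0.26, limma adjusted p = 0.0171). The call was lost without the first Fast list of both tetracycline states (1.28, adjusted p = 0.162) and in the fit of the second lists alone (0.86, adjusted p = 0.320). None of the 36 passed with H3K9ac, and their median difference was 0.13 with H3K27ac and 0.01 with H3K9ac. Of the 36, 27 had a marked gene end in all 8 H3K27ac lists and 17 in all 8 H3K9ac lists, where 33.6% and 21.1% of all genes did. The most uneven H3K9ac gene ends were those of Creb3l3, Abcg8 and Acsl3, with Tm6sf2 tied with the last pair. Creb3l3, a liver and intestine transcription factor gene that acts on apolipoprotein genes, was marked in 3 Fed and 0 Fast lists, and in 3 Fed and 1 Fast list with H3K27ac. Abcg8, a sterol exporter subunit, was marked in 3 Fed and 1 Fast list, Tm6sf2 in 4 and 2, and Acsl3, an acyl-CoA synthetase, in 2 and 4.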

How the data were processed

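Peak lists of H3K27ac and H3K9ac CUT&Tag (Epicypher CUTANA kit) were used as the authors deposited them: chromosome, start, end, name and a peak score of at least 50 in every list. The submitters' processing notes name FastQC, Bowtie, SAMtools and mm10. The deposited names call the lists downsampled. The peak caller's settings and the depth are not given in the sources used here, and lists were taken per sample with 2 lists each, so no interval from read counts was possible. List numbers come from the deposited names.

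Peaks on chromosomes 1 to 19, X and Y were overlapped by at least 1 bp with gene windows from RefSeq (GRCm38.p6), and regions are merged overlapping peaks. Covered length was tested with limma 3.58.1 in R 4.3.3 (trend and robust, 4 group means, pseudocount 1000 bp, mean of at least 1000 bp, Benjamini-Hochberg threshold 0.05 over all genes), and the script was tested on simulated data. Counts used Python 3.11.15, numpy 2.4.6 and pandas 2.3.3. Alternatives were equal numbers of top peaks, the upper 0.5 by score, peaks of at least 500 bp, a 2.5 kb distance, 10 kb flanks, a pseudocount of 100 bp, no filter, median centring, a block for list number, exact permutation, and leaving out lists. Peaks of at least 500 bp for covered length, leaving out the first Fast lists and the settings for region counts were added after seeing the data. All 10 genes are named, as are the pathway genes past the threshold or, where none passed, the 3 with the most uneven gene-end marking. Regions named are those in most lists with the largest summed width, and others chosen after their values were seen. The genes, lists and tests were chosen with earlier results of these data known. Promoters came from RefSeq for 7 of the 10 genes. Part of the list of transcription factor genes is not reported here.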

Additional observations from a re-analysis of the deposited data

How the results depend on the processing

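H3K27ac genes called for feeding (163) became 13 with equal numbers of top peaks, 0 with a pseudocount of 100 bp, 32 with no filter, 1 with 10 kb flanks, 39 with peaks of at least 500 bp, 69 without the first Fast lists, 0 by exact permutation and 58 to 1096 when each list number was left out. H3K27ac genes called for tetracycline (27) became 0, 3, 6, 0, 16, 55, 0 and 0 to 65 in the same order, and 11 after median centring. Those called for dependence on tetracycline (2) became 0 with top peaks, median centring, the smaller pseudocount or 10 kb flanks, 6 with no filter and 1 with wide peaks or without the first Fast lists. The H3K9ac count for feeding (1) became 0 with top peaks, the smaller pseudocount, no filter, 10 kb flanks, wide peaks or permutation, 6 without the first Fast lists and 674 to 6418 by list number. For tetracycline (0) it was 0 to 1 by list number. H3K9ac gene ends marked in all lists (6) became 3 with top peaks, 4 with the upper 0.5 by score and 9 with a 2.5 kb distance. Regions in all lists became 24 (upper 0.5 by score) and 45 to 56 (by list number) from 37 for H3K27ac, and 7 from 13 for H3K9ac with top peaks or the upper 0.5. With the list number as a replicate block, feeding called 455 genes with H3K27ac and 1 with H3K9ac, and no call of a member changed; Cd36 had an adjusted p of 0.0600 (limma). The numbers were not taken to pair the lists, since not every correlation was over 0.1: correlations of deviations spanned 0.0965 to 0.287 (H3K27ac, all positive) and -0.063 to 0.278 (H3K9ac). These correlations run across genes, so they cannot show a shift between list numbers that all genes share. Dependence on tetracycline could not be fitted by list number and was not permuted. Exact permutation could pass no gene, its smallest p being 0.0556. Apart from it, the Mgll call was lost in 7 alternatives, with limma adjusted p from 0.0667 to 0.357, and not with median centring, the block or the first lists alone. Of 231 values of members under alternatives, 203 kept direction and call, 6 passed the threshold by list number and 22 changed sign, the cause not being tested. Without the first Fast lists the H3K27ac feeding differences turned to 0.10 (Apoa1), 0.12 (Apoa4), 0.11 (Apoc3), 0.35 (Fabp1), 0.175 (Fabp2) and 0.092 (Mogat2). With equal numbers of top peaks they turned to -0.015 (Mttp) and -0.21 (Dgat1), with median centring to -0.17 and -0.18, and with 10 kb flanks to -0.0029 and -0.15. Mttp with wide peaks gave -0.028. By list number, values ran from -0.11 to 0.084 (Fabp1), from -0.26 to 0.13 (Fabp2) and from -0.030 to 0.11 (Dgat1). For H3K9ac, top peaks gave -0.015 (Mttp) and -0.38 (Fabp2), median centring -0.048 (Mttp), and list number -1.08 to 0.67 (Apob), -0.28 to 0.665 (Mttp) and -0.66 to 0.45 (Dgat1).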

Other observations

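Genes of intestinal transcription factors that act on fat absorption genes were themselves acetylated. Hnf4a, Hnf4g, Cdx2, Gata4, Ppara, Ppard, Rxra and Nr1h3 each had a marked gene end in all 8 H3K27ac lists, as did 33.6% of all genes. With H3K9ac, Cdx2, Gata4, Ppara, Ppard and Nr1h3 were marked in all 8 lists, as were 21.1% of all genes. Hnf4a was marked in 3 Fed and 3 Fast H3K9ac lists, Hnf4g in 3 and 4, and Rxra in 4 and 3. Creb3l3 was marked in 3 Fed and 0 Fast H3K9ac lists. Its window held 17.9 to 31.3 kb of H3K9ac peaks in Fed and 10.2 to 17.4 kb in Fast lists. Every Fed list thus lay above every Fast list, as in 0.329% of genes tested. The feeding difference in its covered length was -0.73 (SE 0.29, limma adjusted p = 0.955) and did not pass. The gene-end counts carry no test.

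The second list was the longer in all 4 groups of H3K27ac for all 10 fat absorption genes, as for 33.4% of the genes tested. With H3K9ac this held for 3 of the 10 genes and 7.79% of those tested.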
